A study of Mus musculus with 24 samples.

Results

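Fn1, Lyz2, Csf1r, Cd14, Adgre1, C1qa, C1qb, C1qc, Vcam1 and Cx3cr1 are genes of monocytes and macrophages, and they were followed here through the RNA of a preparation of CD4+ T cells. They are 10 of the 55414 genes in the count table and were found in it by gene symbol. They were chosen by their measured levels in these same libraries, so their levels and their differences between the groups are given as a description with no test. All 10 were found in the table, 9 of them had counts in all 4 groups, and 6 passed the filter on low counts that preceded the statistical fit.

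The cells were Tconv CD4+ cells (CD4+ CD25-), taken from mouse spleen with magnetic columns that hold back cells carrying other lineage antigens and then CD25-bearing cells. All mice carried nuclear DNA of C57BL/6J and differed in their mitochondrial DNA, which is that of C57BL/6J (mtDNA B6, written WT in the labels) or that of the NZB strain (mtDNA NZB). Cells of each haplotype were taken either resting or activated by CD3/CD28 beads at 1 bead per cell for 72 h, with IL-2, as the study's methods give it, and each of the 4 groups held 6 libraries. Most experiments of the study used males of 2 to 3 months, and neither the age and sex of the mice behind these libraries nor whether a library is 1 mouse is given in the sources used here, so the spread between libraries may be in part technical. No transgene, deletion or drug was used in either haplotype.

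As background, monocytes are made in the bone marrow under the control of the growth factor receptor encoded by Csf1r, circulate and wait in a reservoir in the spleen, and can become macrophages. The spleen also holds resident macrophages, among them those of the red pulp, which take up old red blood cells and are known for C1q, F4/80 and VCAM-1. T cells are not known for the C1q chains, lysozyme or the CSF1 receptor, which makes these transcripts a readout of myeloid RNA in a T cell preparation. In bulk RNA, fewer cells of a type and less RNA of a gene per cell cannot be told apart.

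Libraries held from 51409 to 6449395 UMI counts, where a UMI (unique molecular identifier) count is a molecule counted once however often it was copied. Levels are given below as CPM, the share of a library's counts on the usual scale after TMM scaling, with the SD over libraries. Resting NZB replicate 2 is the library of 51409 counts, and 1 count there is worth 16.9 CPM, against 0.147 to 1.44 CPM in the other 23 libraries. Resting NZB replicates 2 and 6 and activated NZB replicate 6 are not among the 21 libraries on which mean values of the study's own gene table rest. The summed level of 10 T cell genes, led by Trac, lay between 4319 and 7810 CPM in all 24 libraries, so the labelled cell type was present at rest and after activation.

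The 10 genes together made up 1556 ± 744 CPM (SD, n = 6) in resting B6 cells and 21.0 ± 20.3 CPM (SD, n = 6) in activated B6 cells. In the NZB haplotype the sums were 1083 ± 876 CPM (SD, n = 6) at rest and 37.0 ± 35.0 CPM (SD, n = 6) after activation. Every resting library, at 406.5 CPM or more, lay above every activated library, at 97.8 CPM or less. Lyz2 supplied most of the sum, and without it the other 9 genes summed to 93.0 to 254 CPM in resting B6, 33.9 to 211 CPM in resting NZB, 0.918 to 8.70 CPM in activated B6 and 0.310 to 11.5 CPM in activated NZB libraries.

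**Figure D1:**
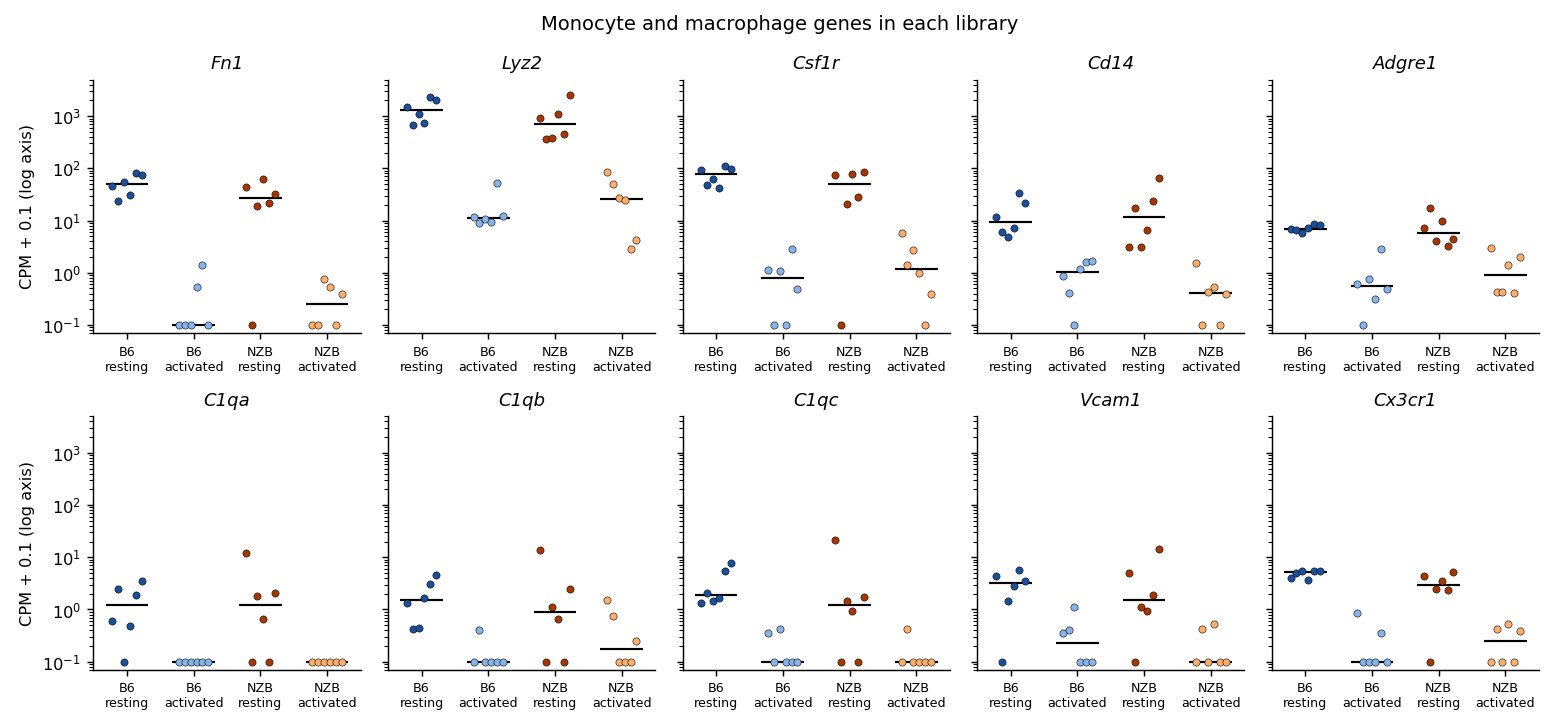
Level of each of the 10 genes in every library, as CPM plus 0.1 on a log axis, with 6 libraries in each of the 4 groups and the group median as a line. Points at 0.1 are libraries with no count. Lyz2 is the only gene of the 10 with counts in all 24 libraries, and resting NZB replicate 1 is the point at the top of the C1qa, C1qb and C1qc panels.

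Lyz2 encodes lysozyme M, a bacteriolytic enzyme of monocytes, macrophages and granulocytes. In resting B6 cells it lay at 685.5 CPM in the lowest library, 1290 CPM at the median and 2318 CPM in the highest. Resting NZB libraries gave 372.6, 700.5 and 2498 CPM for the same 3 points. After activation the lowest, median and highest values were 8.87, 11.1 and 53.5 CPM in B6 cells and 2.79, 25.8 and 86.3 CPM in NZB cells. The resting and activated libraries did not overlap in either haplotype, and the 2 haplotypes overlapped in both states. Activated B6 replicate 5 held 209 of the 389 Lyz2 counts of its group, and the other 5 libraries of that group were close together, at 8.87 to 11.9 CPM. Replicate 5 was also the only activated B6 library in its set by reads per UMI, and the other 5 shared another set. These sets are described below, and without replicate 5 none held both B6 states. Pooled over libraries, Lyz2 was 83.4 times as high at rest as after activation in B6 cells (95% exact counting interval 75.5 to 92.4), and 147 times (127 to 171) without activated replicate 5. In NZB cells the ratio was 51.9 (47.0 to 57.5), falling to 25.8 (23.3 to 28.7) over the 21 libraries. These intervals, like the others below, cover counting error only. A near-identical copy, Lyz1, had 30, 2, 17 and 3 counts in the resting B6, activated B6, resting NZB and activated NZB groups, and how reads that match both copies were counted is not given in the sources used here.

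Fn1 encodes fibronectin, a matrix glycoprotein that monocytes and macrophages also make. Resting B6 libraries spanned 23.2 to 81.5 CPM with a median of 50.5 CPM, and resting NZB libraries 0 to 63.8 CPM with a median of 26.8 CPM. Activated B6 cells had 7 counts in all, 5 of them in replicate 5, and activated NZB cells had 5 counts in all. The NZB groups touched only at 0, where resting replicate 2 had no Fn1 count, and the B6 groups did not overlap. Fn1 was 169 times as high at rest in B6 cells by pooled counts (81.9 to 422), 484 times (134 to 4003) without activated replicate 5, and 146 times as high (62.3 to 452) in NZB cells.

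Csf1r encodes the receptor for the growth factors CSF1 and IL-34, on which most macrophages depend. Its levels were 41.9 to 109.7 CPM with a median of 77.4 CPM in resting B6 libraries and 0 to 84.7 CPM with a median of 50.7 CPM in resting NZB libraries. Activated libraries lay at 0 to 2.81 CPM in B6 cells and at 0 to 5.75 CPM in NZB cells. As with Fn1, the overlap of the NZB groups came from resting replicate 2, the only resting library without a Csf1r count. The pooled ratio of rest to activation was 91.0 (58.1 to 151) in B6 cells and 55.5 (35.7 to 91.3) in NZB cells. It became 177 (89.4 to 410) in B6 cells without activated replicate 5, which held 11 of the 19 counts, and 36.0 (22.6 to 61.2) in NZB cells over the 21 libraries. The last 1000 bases of Csf1r overlap Hmgxb3, a protein-coding gene on the other strand, and the strand used in counting is not given in the sources used here, so Csf1r counts may include reads of that gene.

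Cd14 encodes a co-receptor of Toll-like receptor 4 for bacterial lipopolysaccharide. Resting B6 libraries ran from 4.72 to 33.3 CPM around a median of 9.26 CPM, and resting NZB libraries from 3.00 to 64.2 CPM around a median of 11.7 CPM. The NZB median rests in part on a count of 1 in replicate 2, worth 16.9 CPM. Over the 21 libraries it was 4.73 CPM. Activated libraries lay at 0 to 1.58 CPM in B6 cells and at 0 to 1.44 CPM in NZB cells, with no overlap with rest in either haplotype. Resting NZB replicate 6 held 160 of the 253 Cd14 counts of its group. The pooled ratio of rest to activation was 18.5 (11.6 to 31.0) in B6 cells, or 11.4 (7.05 to 19.4) without resting B6 replicate 5. In NZB cells it was 67.9 (28.7 to 211) over all libraries, 30.2 (12.5 to 95.3) without resting replicate 6 and 32.3 (10.7 to 159) over the 21.

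Adgre1 encodes F4/80, the surface protein most used to stain mouse macrophages. It varied least among the resting B6 libraries together with Cx3cr1, at 5.74 to 8.69 CPM with a mean of 7.18 ± 1.10 CPM (SD, n = 6). Resting NZB libraries spanned 3.21 to 16.9 CPM, and the highest of these is a count of 1 in replicate 2. After activation the B6 libraries lay at 0 to 2.81 CPM and the NZB libraries at 0.310 to 2.88 CPM, below every resting library of the same haplotype. The pooled ratio of rest to activation was 9.23 (5.58 to 16.3) in B6 and 5.50 (3.38 to 9.33) in NZB cells. Each value rested on 1 activated library, since the ratio was 21.4 (9.59 to 59.1) without activated B6 replicate 5 and 9.29 (4.51 to 22.2) without activated NZB replicate 6, which held 13 of its group's 21 counts.

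Cx3cr1 encodes the receptor for fractalkine and is high in non-classical, patrolling monocytes. The 6 resting B6 libraries lay within 3.52 to 5.40 CPM, with a mean of 4.74 ± 0.792 CPM (SD, n = 6). Resting NZB libraries lay at 0 to 5.22 CPM, with a mean of 2.93 ± 1.83 CPM (SD, n = 6). Each activated group had 4 counts in all, and no activated library passed 0.764 CPM. The pooled ratio was 25.6 (9.70 to 95.9) in B6 and 16.8 (6.16 to 64.0) in NZB cells, and the B6 value was 83.7 (14.7 to 3338) without activated B6 replicate 1, which held 3 of the 4 counts.

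Vcam1 encodes an adhesion protein that binds the integrin VLA-4 and marks red pulp macrophages, and that endothelial and stromal cells make as well. It was at 0 to 5.67 CPM in resting B6 and 0 to 14.1 CPM in resting NZB libraries, and at 0 to 0.991 CPM and 0 to 0.436 CPM in the activated groups. The resting and activated libraries overlapped in both haplotypes. Resting NZB replicate 6 supplied 35 of the 60 counts of its group, and the pooled NZB ratio of 40.3 (10.7 to 340) was 20.3 (5.07 to 177) without it. The ratio was 25.9 (6.87 to 219) without activated NZB replicate 6, 13.2 (3.28 to 115) over the 21 libraries, which lack both, and 67.6 (11.7 to 2716) or 70.9 (12.2 to 2846) without activated NZB replicate 2 or 4, which held 1 count each. The B6 ratio was 14.1 (5.78 to 44.9), and 30.4 (8.09 to 256) without activated replicate 3, with 3 of the 5 activated counts. The 8 listed fibroblast and stromal genes summed to at most 1.77 CPM in any library. The 6 listed endothelial genes, led by Pecam1, which leukocytes also express, summed to group means of 136.4 to 155.4 CPM.

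C1qa, C1qb and C1qc encode the 3 chains of C1q, the recognition unit of the classical complement pathway, which is made by macrophages. They lie side by side on the reverse strand of chromosome 4, at 136606009 to 136613511 for C1qb, 136616466 to 136620376 for C1qc and 136623223 to 136626161 for C1qa in GRCm39. At rest the medians were low, at 1.14, 1.41 and 1.78 CPM for C1qa, C1qb and C1qc in B6 cells and 1.12, 0.784 and 1.09 CPM in NZB cells. Resting NZB replicate 1 stood apart in all 3 genes, with 36, 41 and 64 counts, or 12.02, 13.7 and 21.4 CPM, and held most of the 48, 52 and 75 counts of its group. No other library of either haplotype exceeded 3.39, 4.51 and 7.52 CPM, the values of resting B6 replicate 6. The 3 genes together had 3 counts in the 6 activated B6 libraries and 5 in the 6 activated NZB libraries.

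C1qa had no count in any of the 12 activated libraries. Taken against the 3 counts per group that a count of 0 allows, it was at least 9.91-fold higher at rest in B6 cells and at least 21.5-fold higher in NZB cells, with NZB bounds of 6.79 without resting replicate 1 and 13.8 without activated replicate 6, the deepest library. For C1qb the pooled ratio was 41.0 (6.95 to 1660) in B6 cells and 17.4 (6.42 to 66.4) in NZB cells, and 4.67 (1.38 to 20.1) in NZB cells without resting replicate 1. C1qc had ratios of 35.4 (9.43 to 298) and 101 (17.5 to 4028), and the NZB value was 18.7 (2.72 to 804) without resting NZB replicate 1 and 64.8 (11.3 to 2594) without activated NZB replicate 6. With so few activated counts other single libraries moved these values too. Without activated NZB replicate 2 they were 29.3 (7.72 to 248) for C1qb and at least 28.2 for C1qc. In B6 cells C1qb was at least 11.6 without activated replicate 2, and C1qc was 57.7 without activated replicate 1 and 60.7 (10.5 to 2433) without activated replicate 3. C1qb and C1qc overlap a long noncoding RNA gene on the other strand, Gm69251, in their last 1000 bases, as Lyz2 does with Gm67237.

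Since the C1q chains are neighbours whose counts went together, their start regions are shown, with that of Lyz2 for comparison. Of the 10 genes, C1qb, C1qc, Cx3cr1 and Lyz2 had a promoter window (250 bases before to 50 after the start) in the RefSeq table used, whose build is GRCm38.p6. The windows were searched on both strands for the letters GAGGAA, the core bound by the myeloid factor PU.1, for TTNNGNAA, a loose form of the C/EBP site, and for TGANTCA, the AP-1 site. The first was present in C1qb and C1qc and the second in C1qc and Lyz2, while Cx3cr1 held none of the 3, and no match overlapped another. Among all 32851 promoter windows 28.3% held the PU.1 letters, 40.7% the C/EBP letters and 7.81% the AP-1 letters, so matches of this kind are common and are given as a description. In the 30-base stretches that follow, written along the gene's own strand, the capitals mark the matched letters, which in the second are the reverse complement of GAGGAA.
C1qb, chr4:136886213-136886242, reverse strand, PU.1 letters: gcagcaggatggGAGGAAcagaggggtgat
C1qc, chr4:136893090-136893119, reverse strand, PU.1 letters: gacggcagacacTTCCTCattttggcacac
C1qc, chr4:136892977-136893006, reverse strand, C/EBP letters: tcagggaaaatTTCTGGAAaggggatgtag
Lyz2, chr10:117282309-117282338, reverse strand, C/EBP letters: accacaagctgTTGGGAAAggagggacttg
The C1qb match begins 30 bases before the start, the C1qc matches 193 and 81 bases before it, and the Lyz2 match 55 bases before it.

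Activation was compared within each haplotype to ask which genes change when the resting cells are stimulated. In the fit of all genes by edgeR's quasi-likelihood test, a gene passed at a log2 difference of 1 or more in size and a Benjamini-Hochberg adjusted p not above 0.05. Among 10566 genes tested, 10.6% passed as lower after activation in B6 cells and 14.0% in NZB cells. All 6 of the 10 genes that entered this fit were among them in both haplotypes, which is a description, since the genes were chosen on these levels. The activated libraries lay wholly below the resting ones for 8 of the 10 genes in B6 and for 3 of 10 in NZB cells, where resting replicate 2 has many counts of 0, and for 16.4% and 6.95% of all genes tested. The 8 include C1qb and C1qc, which did not enter the fit. For C1qb only scaling parted the B6 groups, with 1 count at 0.331 CPM in the lowest resting library and 1 at 0.306 CPM in the highest activated one. The log2 differences in B6 cells were -7.16 ± 0.55 (SE) for Fn1, -6.29 ± 0.72 for Lyz2, -6.35 ± 0.57 for Csf1r, -3.96 ± 0.76 for Cd14, -3.13 ± 0.48 for Adgre1 and -4.41 ± 0.49 for Cx3cr1. In NZB cells they were -6.89 ± 0.62 for Fn1, -5.12 ± 0.70 for Lyz2, -5.59 ± 0.59 for Csf1r, -6.02 ± 0.97 for Cd14, -2.45 ± 0.51 for Adgre1 and -3.84 ± 0.54 for Cx3cr1. The median difference of the 6 was -5.35 in either haplotype, against -0.03 in B6 and -0.06 in NZB cells over all genes tested.

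The other 4 genes, the C1q chains and Vcam1, had too few counts to pass the filter. In a fit with no filter their log2 differences ran from -5.17 to -3.45 in B6 cells and from -6.36 to -3.79 in NZB cells, where the value of C1qa, with no activated count, depends on the prior count of the fit. Fn1, Lyz2 and Csf1r had the largest differences in B6 cells. The SE of Cd14 was the largest among the 6 genes in both haplotypes.

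**Figure D2:**
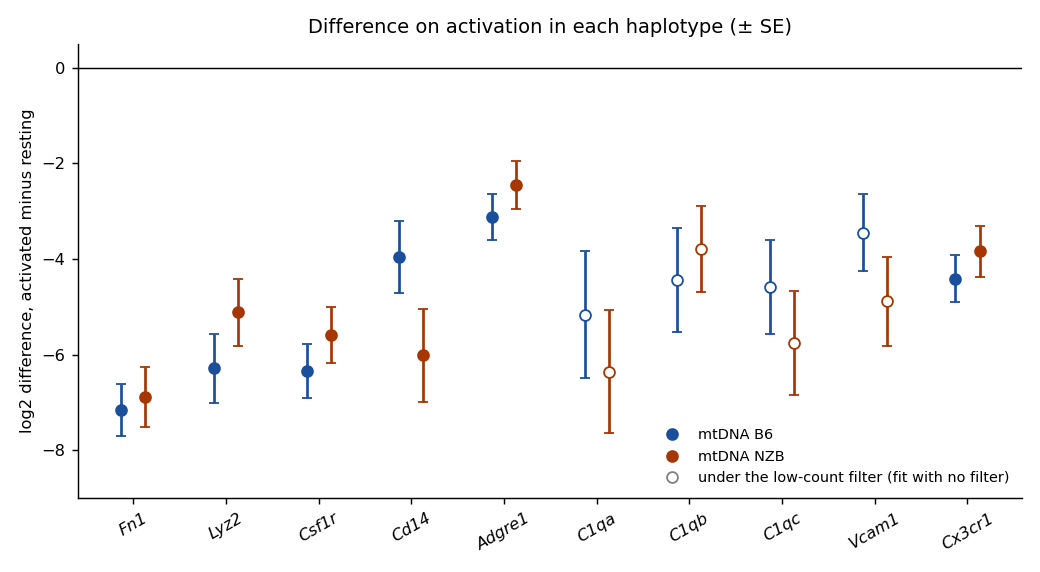
Log2 difference between activated and resting cells (activated minus resting) for each gene in the mtDNA B6 (blue) and mtDNA NZB (orange-brown) haplotype, with bars of 1 SE from the edgeR fit of 24 libraries. Filled circles are the 6 genes that passed the low-count filter and open circles the 4 that did not, taken from the fit with no filter, and all lie below 0.

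The haplotypes were compared at rest and after activation to ask whether the mitochondrial DNA changes the RNA of these cells. None of the 6 genes tested passed in either state or in the interaction, the test of unequal activation responses in the 2 haplotypes. Over all genes 1.01% passed at rest, 0% after activation and 0% in the interaction. At an unadjusted p under 0.05 edgeR likewise gave 0 of the 6 genes in each of these 3 comparisons, against 20.8%, 3.09% and 14.3% of all genes, and DESeq2 gave 0 of 10, adjusted or not. Over the 21 libraries Lyz2 was under this unadjusted limit in the interaction, at 1.87 ± 0.79 (SE), but did not pass. With no filter on those libraries, Lyz2 and Csf1r at rest and Lyz2 after activation were under it too, and none passed. At rest the log2 differences, NZB minus B6, were -0.55 ± 0.34 (SE) for Fn1, -0.50 ± 0.57 for Lyz2, -0.46 ± 0.38 for Csf1r, 0.44 ± 0.58 for Cd14, -0.29 ± 0.40 for Adgre1 and -0.44 ± 0.34 for Cx3cr1. An interval of 2 SEs either way reached beyond 1 in size on the log2 scale for each of the 6, so equal levels are not shown. The direction of Cd14 rested on resting NZB replicate 6, since its difference was -0.73 without that library and -0.75 ± 0.56 over the 21 libraries. It was also below 0 with a replicate block by title number, at -0.11, and with the library set as a term, at -0.23.

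After activation the haplotype differences ran from -1.61 ± 1.34 (SE) for Cd14 to 0.68 ± 0.65 for Lyz2, on the few counts left in those libraries. The summed level of the 10 genes in resting cells was lower in NZB than in B6 by 0.52 on the log2 scale, and the libraries of the haplotypes overlapped. That value was -1.04 without resting NZB replicate 6 and -0.35 without replicate 2. For the activated cells the sum was higher in NZB by 0.82 on the log2 scale, with values of 1.54 without activated B6 replicate 5 and 0.25 without activated NZB replicate 1. Within the library sets by reads per UMI, described below, that held both activated groups, the order was the other way. In the first set B6 lay at 9.79 to 15.3 CPM and NZB at 3.10 and 7.33 CPM. In the second B6 was at 62.2 CPM, in 1 library, and NZB at 28.8 and 54.5 CPM. The third set held no activated B6 library.

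Other genes of the myeloid lineage were drawn from lists of common myeloid genes, of classical and non-classical monocytes, and of red pulp and marginal zone macrophages. Of these 56 genes 34 passed the low-count filter. On activation 29 fell and 1 rose in B6 cells, and 29 fell and none rose in NZB cells by edgeR, where 31 of the 34 had an unadjusted p under 0.05 and DESeq2 gave 36 falls and 0 rises. Over all genes 7.06% rose in B6 and 9.46% in NZB cells, and 53.4% and 58.6% had an unadjusted p under 0.05. The median log2 difference of the 34 was -2.73 in B6 and -2.64 in NZB cells. These lists too were drawn up with earlier results known, so their counts are set beside the shares over all genes given above and are no independent evidence of direction.

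Of 20 tested common myeloid genes 18 fell in each haplotype, among them Spi1 and Cebpa, which encode the transcription factors PU.1 and C/EBPα. Tyrobp, an adaptor of activating receptors, went from 322 ± 129 CPM at rest to 14.7 ± 4.97 CPM (SD, n = 6) in B6 cells. Its log2 difference was -4.44 ± 0.35 (SE, edgeR adjusted p = 2.56e-10) in B6 and -4.67 ± 0.38 (adjusted p = 3.32e-10) in NZB cells. Sirpa, an inhibitory receptor that binds CD47, fell by 4.25 ± 0.42 and 4.70 ± 0.48 on the log2 scale (edgeR adjusted p = 1.36e-08 and 1.67e-08). Clec7a, the beta-glucan receptor Dectin-1, fell by 2.99 ± 0.63 and 3.71 ± 0.75 (edgeR adjusted p = 3.40e-04 and 1.99e-04). The exceptions were Ctss, a lysosomal protease that B cells also make, at log2 differences of -0.40 and -0.27, and Csf2rb, a shared cytokine receptor chain, with edgeR adjusted p of 0.645 in B6 and 0.0939 in NZB cells.

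All 8 tested genes of the classical monocyte list fell in each haplotype. Chil3, a chitinase-like secreted protein of monocytes and granulocyte precursors, fell by 7.93 ± 1.14 on the log2 scale in B6 cells (SE, edgeR adjusted p = 3.49e-06) and by 7.18 ± 1.14 in NZB cells (adjusted p = 1.03e-05). Il1b, the cytokine interleukin-1β, fell by 4.71 ± 0.71 and 5.62 ± 0.88 (edgeR adjusted p = 6.36e-06 and 8.10e-06). Mgst1, a microsomal glutathione transferase, fell by 4.93 ± 0.68 and 3.62 ± 0.65 (edgeR adjusted p = 2.01e-06 and 4.92e-05). Of the 3 tested genes of non-classical monocytes 2 fell, and Ace, the angiotensin-converting enzyme, was at 19.2 ± 5.15 CPM in resting B6 and 0.0426 ± 0.104 CPM (SD, n = 6) in activated B6 cells. Its log2 difference was -7.80 ± 0.74 (SE, edgeR adjusted p = 5.71e-09) in B6 and -6.97 ± 0.82 (adjusted p = 1.37e-07) in NZB cells. Eno3, a muscle-type enolase, was the third gene of that list and had log2 differences of 0.34 and 0.73.

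Of 11 listed genes of red pulp macrophages 3 were tested, and 1 fell in each haplotype. In mean CPM every listed gene but Axl was lower in activated than in resting B6 cells, and every one but Axl and Timd4, which had no NZB count, in NZB cells, most of them on few counts. Slc11a1, a metal transporter of the phagosome, fell by 3.62 ± 0.47 on the log2 scale in B6 and 3.69 ± 0.58 in NZB cells (SE, edgeR adjusted p = 8.06e-07 and 9.58e-06). Axl, a receptor for dying cells, rose in B6 cells from 5.26 ± 1.16 to 10.5 ± 1.67 CPM (SD, n = 6; log2 difference 1.00 ± 0.30 SE, edgeR adjusted p = 7.67e-03), just at the fold limit. In NZB cells Axl had a difference of 0.84 ± 0.33. Hmox1, which breaks down haem, was at 25.9 ± 8.73 CPM in resting and 13.3 ± 4.72 CPM in activated B6 cells (SD, n = 6), with a log2 difference of -0.97 ± 0.30 (SE), and at 13.2 ± 10.3 and 12.2 ± 4.14 CPM in NZB cells. Defining genes of these macrophages were near the counting limit: Spic had at most 3 counts in a resting library, Cd5l at most 5, Cd163 at most 8 and Timd4 at most 1, and none of the 4 listed marginal zone genes entered the fit.

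**Figure D3:**
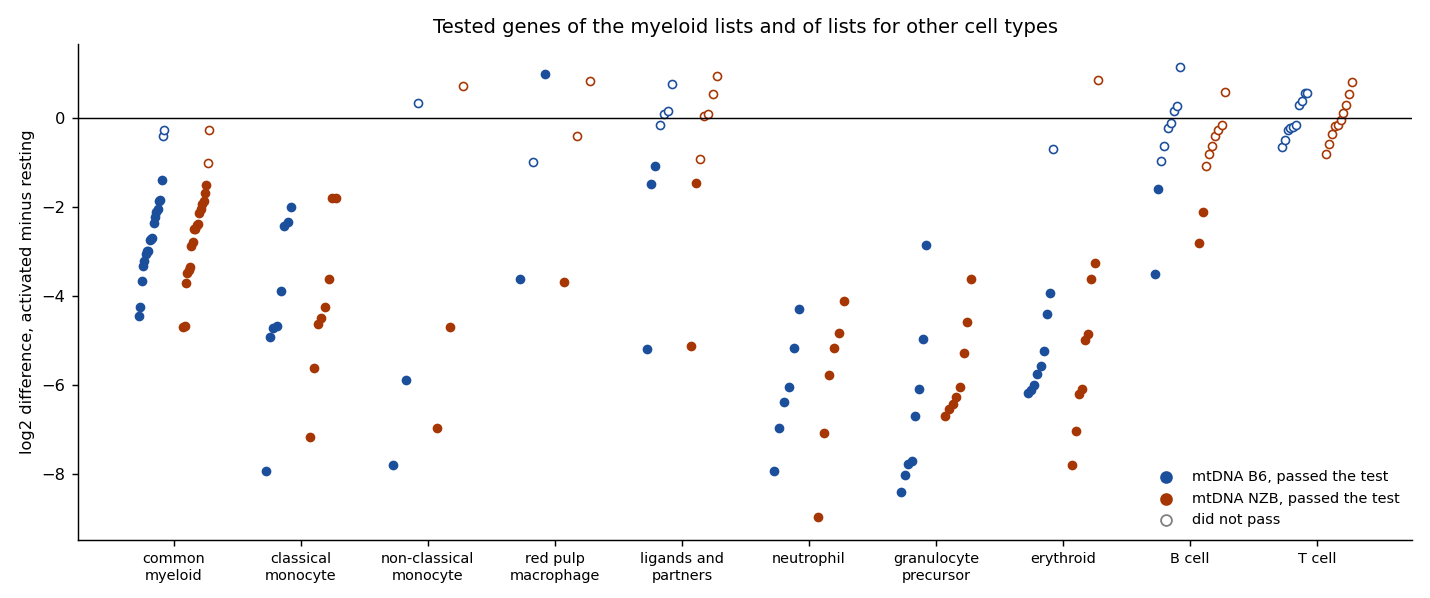
Log2 difference between activated and resting cells for each tested gene of the myeloid lists, of the list of ligands and partners, and of lists for other cell types, in mtDNA B6 (blue) and mtDNA NZB (orange-brown). Filled points passed the edgeR test and open points did not. Common myeloid, classical monocyte, neutrophil, granulocyte precursor and erythroid genes lie mostly below -1, and T cell genes lie around 0.

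Between haplotypes at rest 0 of the 34 other myeloid genes passed by edgeR and 0 of 56 by DESeq2, with 4 at an unadjusted p under 0.05 in each fit. Over the 21 libraries 2 of 35 passed, both lower in NZB, and the share among all 10826 genes of that fit was not taken. These were Chil3, with a log2 difference of -2.44 ± 0.55 (SE, edgeR adjusted p = 0.0154), and Hmox1, with -1.07 ± 0.29 (adjusted p = 0.0348). Leaving out only resting NZB replicate 6 gave the same 2 genes, Chil3 at -2.45 ± 0.53 (edgeR adjusted p = 0.0106) and Hmox1 at -1.09 ± 0.31 (adjusted p = 0.0404), whereas leaving out any other library gave none. Resting NZB replicate 6 had 1645 Chil3 counts, against 156 or fewer in the other resting NZB libraries. After activation and in the interaction 0 of 34 passed by edgeR and 0 of 56 by DESeq2, with 0 and 1 at an unadjusted p under 0.05 by each tool.

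Ligands and binding partners of the 10 genes' products formed a list of 19 genes. Of these 7 were tested, and 3 fell in B6 and 2 in NZB cells, while none rose by edgeR or DESeq2 in either. Csf1, the T cell-expressed ligand of the CSF1 receptor, had log2 differences of 0.78 ± 0.37 (SE) in B6 and 0.96 ± 0.42 in NZB cells, and edgeR adjusted p of 0.0875 and 0.0568. Il34 and Cx3cl1, the other ligand of that receptor and the ligand of Cx3cr1, were at group means of at most 0.0424 and 0.591 CPM. C3, the central complement protein that the C1q pathway cleaves, fell by 5.19 ± 0.74 on the log2 scale in B6 and 5.12 ± 0.80 in NZB cells (SE, edgeR adjusted p = 3.37e-06 and 7.89e-06). Itga4, the α4 chain of the integrin VLA-4 that binds both VCAM-1 and fibronectin, fell by 1.47 ± 0.18 and 1.45 ± 0.19 (edgeR adjusted p = 4.02e-07 and 7.94e-07), from 67.6 ± 10.4 to 24.4 ± 4.41 CPM (SD, n = 6) in B6 cells. Itgav, another fibronectin-binding chain, fell by 1.07 ± 0.34 in B6 cells (edgeR adjusted p = 0.0116) and had a difference of -0.92 ± 0.39 in NZB cells. Calr, Itgb1 and Itgb7, for C1q-binding calreticulin and 2 integrin chains, did not pass in either haplotype.

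The genes most like the tested members were sought by the Pearson correlation, over the 24 libraries, of log2 CPM with each group's mean taken off. They were Slc11a1 (r = 0.928), Lrp1 (0.919), Tgfbi (0.897), C3 (0.886), Clec4e (0.872), Lrg1 (0.853), Pilra (0.843) and Pi16 (0.842). These values describe variation between libraries of a group, which share depth and preparation. In level, all 8 genes had a higher mean at rest than after activation in both haplotypes, as Tgfbi, a secreted matrix protein, with 61.8 ± 28.8 and 0.474 ± 0.675 CPM in B6 and 34.4 ± 24.9 and 1.03 ± 0.750 CPM in NZB cells (SD, n = 6).

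The members did not all vary together among resting libraries. Over the 11 resting libraries other than NZB replicate 2, the rank correlations (Spearman's rho) among Fn1, Lyz2 and Csf1r were 0.78 to 0.93, and those among the C1q chains 0.65 to 0.81. Between the C1q chains and Fn1, Lyz2, Csf1r, Cd14, Adgre1 or Cx3cr1 they ran from -0.09 to 0.65 with a median of 0.35. Vcam1 had values of 0.29, 0.75 and 0.45 with C1qa, C1qb and C1qc, so that its value with C1qb was as high as that of C1qb with C1qc. Cd14 had values of 0.05 to 0.26 with Fn1, Adgre1 and Cx3cr1, and of 0.61 with Lyz2, 0.54 with Vcam1 and 0.50 with Csf1r. These are descriptions over libraries that also share their scaling.

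Ratios of counts within a library, which no scaling touches, were compared as well. Resting NZB replicate 1 had 50.3 C1q chain counts per 1000 Lyz2 counts (95% exact counting interval 42.2 to 59.6), whereas the other 10 libraries lay at 0 to 10.4. Lyz2 itself was at 935.9 CPM in that library, within the range of its group. The same library had 15 counts of Fcna, a ficolin of macrophages, and 35 of Axl, the highest of all resting libraries. Cd163, at 7, and Cd5l, at 5, were near the other libraries. By CPM, the listed red pulp genes highest there were Fcna, Axl, Cd5l and Itgad. Hmox1, at 19.7 CPM, Slc11a1, at 7.68 CPM, and Slc40a1, at 2.00 CPM, were exceeded in other resting libraries, as were Spic, Mertk, Timd4 and Cd163.

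Cd14 divided the libraries in another way. Resting NZB replicates 5 and 6 had 83.6 (56.5 to 123) and 75.8 (61.4 to 93.6) Cd14 counts per 100 Csf1r counts, and the other 9 libraries had 4.09 to 30.4. Clec4e, a lectin receptor induced in stimulated myeloid cells, was at 17.9 and 57.8 CPM in these libraries. It was at 5.04 to 10.9 CPM in resting NZB replicates 1, 3 and 4 and at 2.02 to 31.2 CPM in resting B6 libraries. Il1b was at 5.04 CPM in replicate 5 and 26.5 CPM in replicate 6, against 2.69 to 6.16 CPM and 2.70 to 22.2 CPM in the same libraries. For Il1b, replicate 5 therefore did not stand out. Fn1 per 100 Csf1r counts was more even, at 37.9 in NZB replicate 6 and 48.6 to 91.9 in the other 10.

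**Figure D4:**
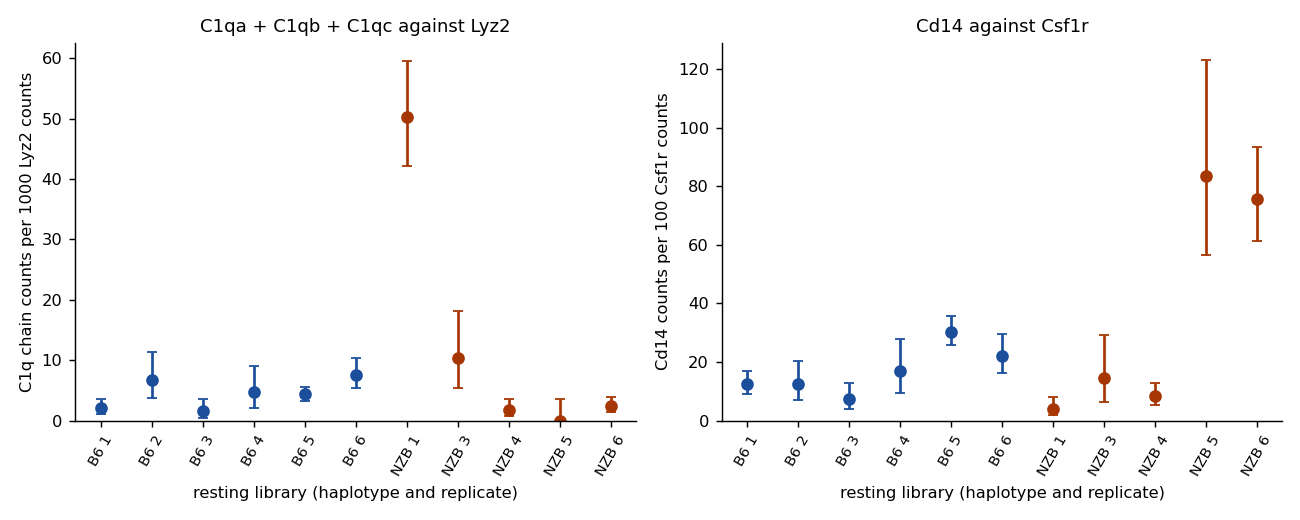
Counts of the 3 C1q chains per 1000 Lyz2 counts (left) and of Cd14 per 100 Csf1r counts (right) in each of 11 resting libraries, named by haplotype and replicate, with 95% exact counting intervals. NZB replicate 1 stands at 50.3 on the left, and NZB replicates 5 and 6 at 83.6 and 75.8 on the right.

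Libraries of rest and activation that carry the same number in the labels were set side by side, 5 in B6 and 4 in NZB. The number may stand for an animal, which the labels do not say. The summed level of the 10 genes was higher at rest in all 9, by 41.4 to 159 times in B6 and by 11.5 to 370 times in NZB cells. Among these B6 libraries the highest at rest, replicate 5 at 2573 CPM, carried the same number as the highest after activation, replicate 5 at 62.2 CPM. In NZB cells the highest of the 4 at rest, replicate 6 at 2709 CPM, shared its number with the lowest after activation, replicate 6 at 7.33 CPM.

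Markers of other cell types moved with the members. On activation 6 of 6 tested neutrophil genes, 8 of 8 granulocyte precursor genes and 8 of 9 erythroid genes fell in each haplotype. Of 10 T cell genes 0 passed by edgeR. In each haplotype 5 of these had an adjusted p not above 0.05 but missed the fold limit. At an unadjusted p under 0.05 there were 5 in B6 and 6 in NZB cells, against 53.4% and 58.6% of all genes. Neutrophil genes, led by S100a9, summed to 63.8 to 884 CPM in resting B6 and 55.1 to 5197 CPM in resting NZB libraries, and to 1.58 to 43.1 CPM in activated libraries. Granulocyte precursor genes, led by Ngp, were at 421 to 18441 CPM at rest and 8.05 to 165 CPM after activation. Their highest values belonged to resting NZB replicate 6, which also had the highest Lyz2, Cd14 and Vcam1, and Lyz2 and Chil3 are known in granulocytes and their precursors too. Resting NZB replicate 1, with the highest C1q, had 109 CPM of neutrophil and 978 CPM of precursor genes. Of 9 B cell genes, led by Ighm, 2 fell in each haplotype, and of 5 tested dendritic cell genes, led by Bst2, 3 fell in B6 and 4 in NZB cells. The B cell genes summed to 8598 to 13286 CPM in resting B6 and 5744 to 17463 CPM in resting NZB libraries. After activation they summed to 2412 to 6170 CPM in B6 and 1115 to 6023 CPM in NZB libraries. Ighm was the largest part of the mean in every group. The part of granulocytes and of these other cells in the levels of the 10 genes was not tested.

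**Figure D5:**
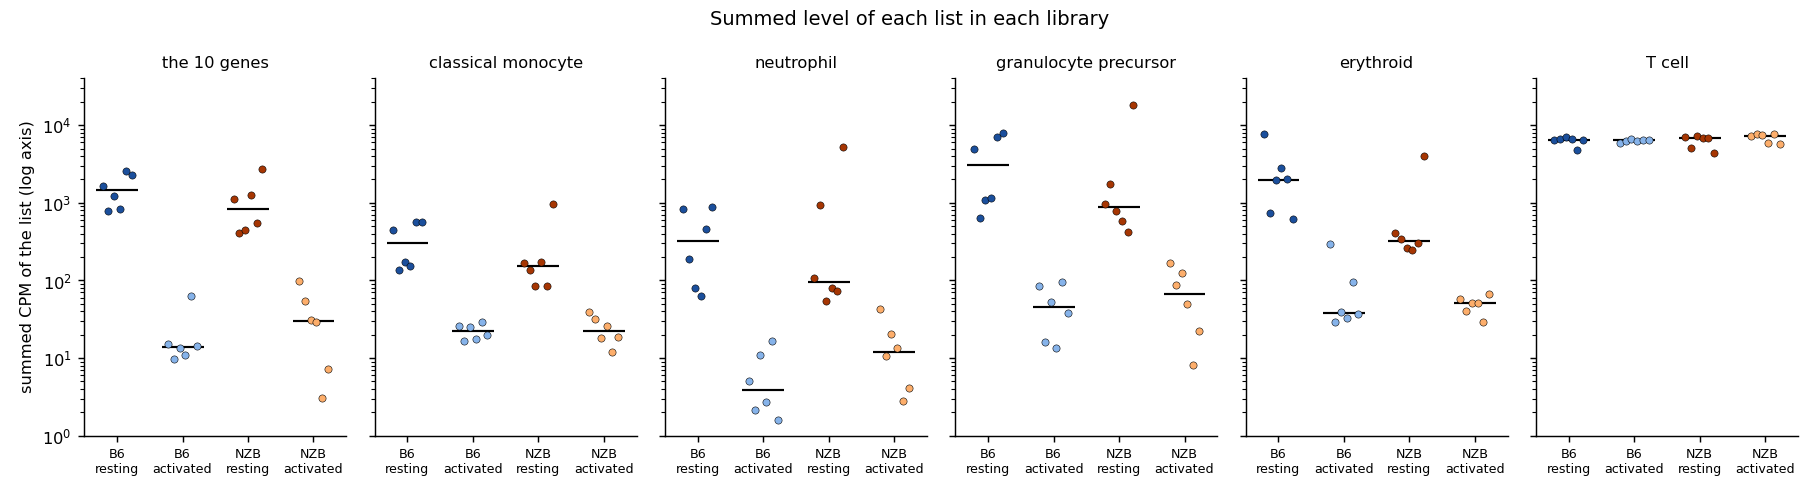
Summed CPM on a log axis of the 10 monocyte and macrophage genes, the classical monocyte list and 4 lists for other cell types, in each of the 24 libraries, with group medians as lines. All lists but that of T cells are lower in the activated groups, and resting NZB replicate 6 is the highest point of the neutrophil and granulocyte precursor panels.

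The libraries fell into 3 sets of 8 by their reads per UMI, and the groups are unevenly spread over them. In the sets that held resting and activated libraries of the NZB haplotype, the summed level of the 10 genes was 443 CPM against 3.10 and 7.33 CPM in the first, 1120 CPM against 28.8 and 54.5 CPM in the second, and 406.5 to 2709 CPM against 30.8 and 97.8 CPM in the third. For B6 cells the second set alone held both states, at 778 to 1650 CPM at rest and 62.2 CPM in the activated library. The resting libraries therefore lay above the activated ones within each set that could be compared.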

How the data were processed

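Bulk MARS-seq, a 3′-end method for poly(A) RNA with a UMI on every captured molecule, was applied to 24 Tconv libraries in 4 groups of 6, mapped to groups by their labels. Before deposit the authors trimmed reads with cutadapt, dropped those under 30 bases, mapped the rest with STAR to the 3′ regions (1000 bases) of GRCm39 genes, counted them with htseq-count, collapsed UMIs and corrected for saturation. The deposited values are whole-number counts per gene, not scaled to depth. A second deposited table of larger counts, read as counts before UMI collapse, served as an alternative, and its ratio to the first gave the reads per UMI. Its 1 column that matched no sample was not used. The labels give 30 ng of RNA per library and the methods 60 ng.

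Genes were named through the GRCm39 annotation (24820 of 25030 genes with a count matched, and the rest held 0.0272% of counts). Libraries of a group differed by more than sampling noise (lowest chi-square per degree of freedom 2.77). Counts were filtered with filterByExpr, scaled by TMM and fitted over 4 groups with edgeR 4.0.16 in R 4.3.3 (quasi-likelihood test, Benjamini-Hochberg adjustment over 10566 genes). DESeq2 1.42.0 was an alternative, and pooled ratios with exact binomial intervals were computed in Python 3.11.15 with scipy 1.17.1. The fit was tested on simulated data. The SE is the log2 difference divided by the square root of F.

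The members and the gene lists were chosen with earlier results of these data known. Beside the 10 members, the genes named are the 3 largest passing changes of each list on activation with a mean of 5 CPM in a group, genes passing between haplotypes, the top resting gene of each marker list and the 8 genes most like the members, skipping predicted genes. Spi1, Cebpa, Ctss, Csf2rb, Eno3, Hmox1, Itgav, Itgb1, Itgb7, Calr, Csf1, Il34, Cx3cl1, Fcna, Cd163, Cd5l, Spic, Timd4, Itgad, Slc40a1, Mertk and Mcpt8 were added after their values were seen. Alternatives were other scalings, filters, tools and fold limits, the second table, fits of the compared groups only, replicate blocks, the library set as a term, leaving out each library, and the 21 libraries. The last with no filter, and the pooled ratios without each library or over the 21, were added after seeing the data.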

Additional observations from a re-analysis of the deposited data

Results flagged for a closer look

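In each group of 6 libraries the highest and lowest CPM of each of the 10 genes was compared with its nearest neighbour, and a library was taken up here when that gap exceeded 0.625 of the group's range. Chance gives about 1 in 20 groups such a gap, and 15 of 38 did. Counts are skewed and many groups are mostly 0, where 1 count is enough for a gap.

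Among resting libraries NZB replicate 1 was far above its group in C1qa (12.02 CPM), C1qb (13.7 CPM) and C1qc (21.4 CPM). Resting NZB replicate 6 was far above it in Lyz2 (2498 CPM), Cd14 (64.2 CPM) and Vcam1 (14.1 CPM). Among activated libraries B6 replicate 5 stood above its group in Fn1 (1.28 CPM), Lyz2 (53.5 CPM), Csf1r (2.81 CPM) and Adgre1 (2.81 CPM). It was the only activated B6 library of the second set by reads per UMI. The activated NZB libraries of that set had 24.8 and 51.2 CPM of Lyz2. The remaining gaps rest on 1 to 3 counts: Cd14 in activated NZB replicate 1 (1.44 CPM), C1qb in activated B6 replicate 2 (0.306 CPM), C1qc in activated NZB replicate 2 (0.326 CPM), Vcam1 in activated B6 replicate 3 (0.991 CPM) and Cx3cr1 in activated B6 replicate 1 (0.764 CPM).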

How the results depend on the processing

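The 10 genes kept the direction given above in both activation comparisons under each alternative that tested them. Shares over all genes were taken for the main fit only. In B6 cells, the number of the 10 that passed went from 6 to 10 with DESeq2, with no filter and with the 21 libraries and no filter, where more genes are tested. In NZB cells it was also 10 in these 3, and 2 in the fit of the compared groups only, where 2 entered the fit. Leaving out each library gave 6 to 7 in either haplotype, the seventh being Vcam1, and 0 to 0 in the haplotype comparisons and the interaction. Of other myeloid genes, 19 of 24 tested passed in the NZB activation fit of the compared groups only, and at rest NZB against B6 gave 2 over the 21 libraries and 7 with these and no filter. Leaving out each library gave 29 to 31 and 28 to 30 on activation in B6 and NZB and 0 to 2 at rest. Of partner genes, 5 passed with DESeq2 and 6 with no filter, or with the 21 libraries and no filter, in B6 cells. In NZB cells 5 passed with DESeq2 or no filter and 4 without the fold limit. At rest 1, C3, passed over the 21 libraries with no filter. Leaving out each library gave 2 to 3 in both activation comparisons.

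The log2 difference of the summed level ranged, leaving out each library, from -6.93 to -6.01 and from -5.44 to -4.36 on activation in B6 and NZB, from -1.04 to -0.32 between haplotypes at rest and from 0.25 to 1.54 after activation. Deviations from the group means had correlations of -0.158 to 0.253 between same-numbered libraries. Such correlations cannot show whether equal numbers mark the same animal. With a replicate block, set by the label number or the title number, 6 of the 10 genes passed in each haplotype, and of other myeloid genes 28 to 30. For the members' single log2 differences, 239 of 239 alternatives at rest, 234 of 245 and 238 of 241 on activation stayed within the spread between replicates, and 0 reversed a passing difference. Depth limits what can be said of the C1q chains and Vcam1 and of every activated library, where 3 counts are worth 0.440 to 4.31 CPM, and 50.8 CPM in resting NZB replicate 2.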

Other observations

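Other marker lists, not named in the comparisons, gave the following summed levels. Genes of mast cells, basophils and eosinophils, led by Prg2, had group means of 896 CPM in resting B6, 78.9 CPM in activated B6, 532 CPM in resting NZB and 33.0 CPM in activated NZB cells, and 3 of 4 tested genes fell in each haplotype. The fourth, Mcpt8, a basophil protease, rose in B6 cells, from a mean of 8.09 to 39.7 CPM. Resting NZB replicate 6 alone was at 1889 CPM for this list, and the resting NZB mean was 300.2 CPM over the 21 libraries. Genes of plasma cells, led by Xbp1, which other cells use too, had group means of 323, 350, 557 and 335 CPM in the same order, with 2 of 3 tested genes lower after activation and a resting NZB mean of 369.5 CPM over the 21 libraries. Platelet genes, led by Pf4, went the other way, with group means of 22.2, 202, 24.1 and 120 CPM, the third being 14.6 CPM over the 21 libraries, and 2 of 3 tested genes rose in each haplotype. The 2 CD8 T cell genes, led by Cd8b1, also rose in both, from 71.6 to 282 CPM in B6 and from 69.3 to 231 CPM in NZB cells. NK cell genes, led by Eomes, which T cells can express, had group means of 44.5, 181, 57.1 and 87.9 CPM, with 2 of 3 tested genes higher and 1 lower in B6 cells and 1 each way in NZB cells. Treg genes, led by Ctla4, which activation induces, had group means of 110, 204, 131 and 250 CPM, and 1 of 4 tested genes rose in each haplotype.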
